A study of Mus musculus with 4 samples.

Results

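The Iroquois homeobox genes Irx1, Irx2, Irx3, Irx4 and Irx5 were examined in 2 regions of the embryonic mouse heart. They were taken by gene symbol. Every probe set that the platform annotation gives to exactly 1 of these symbols was used, which left 5 probe sets, 1 for each gene, among the 22690 of the table, and made them 5 of the 12393 genes that have such a probe set. All 5 had a mean intensity over the 4 arrays above the floor of 100 and were tested. Irx1 and Irx2 cleared this floor only through the ventricular arrays, where their means were 414 and 265. Their means on the AV arrays were 94.3 and 20.4. Irx6, the remaining relative, also has 1 probe set and is given beside them.

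Iroquois proteins are transcription factors of the TALE class, so named for a loop of extra amino acids in the homeodomain, and they carry a further conserved stretch called the Iro box. In the mouse the genes lie in a pair of clusters, Irx1 with Irx2 and Irx4 on chromosome 13, and Irx3 with Irx5 and Irx6 on chromosome 8. In the developing mouse heart Irx4 is known as a factor of ventricular muscle, Irx3 for trabecular muscle and the later ventricular conduction system, Irx5 for the endocardium and for the later gradient of repolarisation across the ventricular wall, and Irx1 and Irx2 for the ventricular septum.

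The tissue was the atrioventricular (AV) junction, set against the ventricular region, both microdissected from wild-type C57BL/6 embryos at embryonic days 10.5 to 11.0. Each region was pooled from about 80 hearts, and 230 ng of AV junction RNA and 250 ng of ventricular RNA went into labelling. That RNA was amplified and read on 2 Affymetrix MOE430A arrays per region, called 1a and 1b. The shared replicate number points to 1 pool per region read on both of its arrays, although the labels do not say so, and p-values therefore measure the spread between arrays, not between embryos.

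Intensities are MAS5 values rescaled so that every array has the same trimmed mean of 500. Every log2 fold is that of the AV junction minus that of the ventricular region, taken after 50 was added to each intensity, and adjusted p-values are limma's with Benjamini-Hochberg adjustment over the 13403 probe sets tested, with 0.05 as the threshold. The brightest of 27 Bacillus subtilis control probe sets, which mouse RNA should not match, served as background and read 58.6 and 52.6 on the AV junction arrays and 97.9 and 104 on the ventricular arrays. An exact permutation test of 2 against 2 arrays cannot give a two-sided p below 0.333, which is the value each Iroquois gene had.

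RefSeq promoter windows were at hand for Irx2, Irx3 and Irx4 and are shown because these genes were lower in the AV junction together. Each line gives the 250 bases before a RefSeq transcription start, 5′ to 3′ on the gene's strand, in build GRCm38.p6. They span chr13:72628570-72628819 on the plus strand for Irx2, chr8:91801655-91801904 on the minus strand for Irx3 and chr13:73260247-73260496 on the plus strand for Irx4. For Irx2 and Irx4 the start used lies inside the span listed for the gene, which has several transcripts. Capitals mark GC boxes (GGGCGG on either strand).
Irx2: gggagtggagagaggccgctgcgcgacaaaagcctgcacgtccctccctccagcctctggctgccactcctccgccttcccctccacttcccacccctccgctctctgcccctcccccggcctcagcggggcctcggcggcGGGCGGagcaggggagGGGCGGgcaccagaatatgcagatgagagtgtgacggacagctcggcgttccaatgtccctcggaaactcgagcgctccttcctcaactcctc
Irx3: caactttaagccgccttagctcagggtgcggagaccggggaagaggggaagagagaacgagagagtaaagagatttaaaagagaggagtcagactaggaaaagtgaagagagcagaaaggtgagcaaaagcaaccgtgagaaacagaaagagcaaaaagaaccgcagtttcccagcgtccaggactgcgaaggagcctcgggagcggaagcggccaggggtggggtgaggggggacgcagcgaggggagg
Irx4: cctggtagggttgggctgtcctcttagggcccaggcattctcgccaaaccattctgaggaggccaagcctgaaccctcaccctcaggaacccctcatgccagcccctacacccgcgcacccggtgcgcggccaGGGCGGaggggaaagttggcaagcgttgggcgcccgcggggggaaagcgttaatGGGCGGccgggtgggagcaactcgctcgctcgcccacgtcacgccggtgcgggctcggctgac

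The Irx2 and Irx4 windows were rich in G and C, at 68.4% and 68.8%, and that of Irx3 had 56.0%, where the median over 32851 RefSeq windows was 52.4%. They held 19, 13 and 22 CpG pairs for Irx2, Irx3 and Irx4, against a median of 6. GC boxes stood at −109 and −93 in Irx2 and at −117 and −63 in Irx4, counting the base before the start as −1, and 32.7% of all windows hold one. The other 6 motifs searched, on both strands, had no match in these windows. They were the TATA box TATAAA (in 12.4% of all windows), the GATA site AGATAA (9.99%), the NK2 site TNAAGTG (10.1%), the T-box half-site GGTGTGA (3.33%), the Hey E-box CACGTG (6.02%) and the site ACANNTGT known for Iroquois proteins of Drosophila (6.31%). The GC boxes overlap no other motif searched.

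All 5 Iroquois genes were lower in the AV junction. Each passed limma's test with at least a 2-fold difference, where 6.58% of all probe sets tested passed as lower and 1.57% did so with at least a 2-fold difference. The median log2 fold of the 5 was −1.62, and the median over all probe sets tested was −0.07. For all 5 both AV arrays read below both ventricular arrays, as 35.1% of all probe sets did. Of all 13403 log2 folds, counted from the lowest, those of Irx1, Irx3, Irx4 and Irx5 ranked 33, 39, 42 and 53. Irx2 is given no rank, because its AV level was only a bound.

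**Figure D1:**
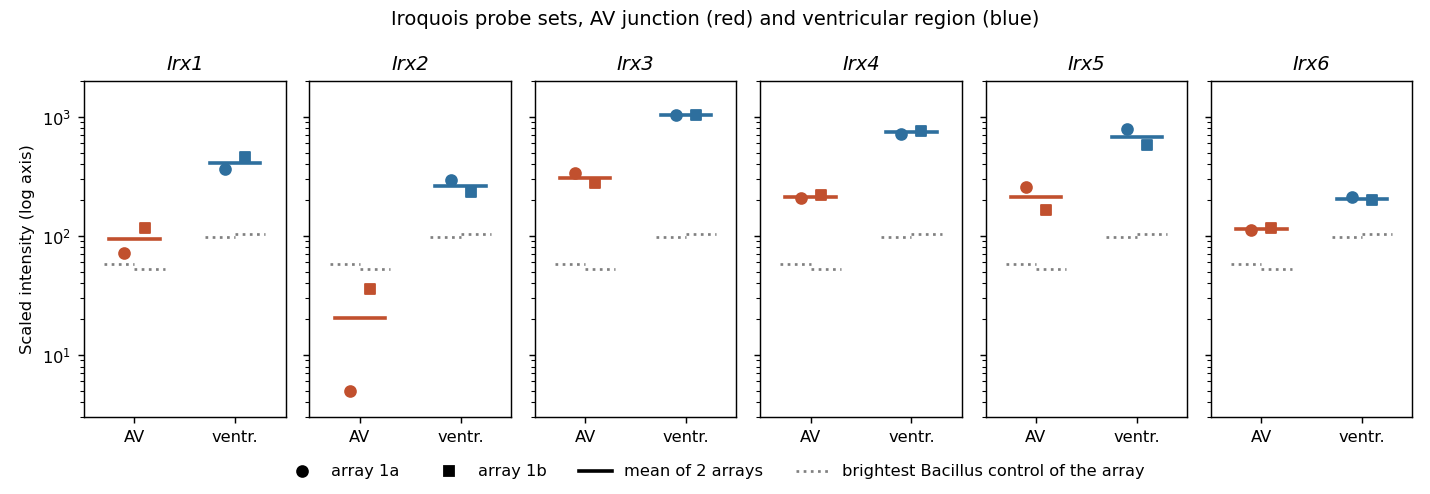
Scaled intensity (log axis) of the 5 Iroquois probe sets and of Irx6 on each array, with AV junction arrays in red on the left and ventricular arrays in blue on the right. Circles are arrays 1a, squares arrays 1b, bars the mean of 2 arrays and dotted lines the brightest Bacillus control of each array. No AV array reaches a ventricular array in any panel, and for Irx2 alone both AV arrays lie under their controls.

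Irx4, the ventricular identity factor, read 207 and 220 on AV arrays 1a and 1b, against 725 and 767 on ventricular arrays 1a and 1b. Both regions read above background, and the arrays of each region were close to each other and far from those of the other. Its mean was 213 ± 8.57 on the AV arrays and 746 ± 29.4 on the ventricular arrays (SD, n = 2 arrays each). The log2 fold was −1.59 with an SE of 0.14 (95% interval −1.93 to −1.26, limma adjusted p = 0.000979), which is 3.02-fold lower. On the log2 scale the highest AV array lay 1.52 under the lowest ventricular array, while arrays of 1 region differed by 0.07 (AV junction) and 0.08 (ventricular region).

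Irx3, the trabecular factor, read 337 and 277 on the AV arrays, against 1045 and 1041 on the ventricular arrays. The ventricular arrays were nearly equal, and all 4 arrays were above background. The log2 fold was −1.62 with an SE of 0.14 (95% interval −1.95 to −1.29, limma adjusted p = 0.000885), which is 3.07-fold lower.

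Irx5, the endocardial factor, read 259 and 165 on the AV arrays, against 785 and 576 on the ventricular arrays. Array 1a was the higher one in both regions, and the regions did not overlap, with a log2 gap of 1.02 between the nearest arrays. The means were 212 ± 67.0 on the AV arrays and 680 ± 148 on the ventricular arrays (SD, n = 2 arrays each). Its log2 fold was −1.49 with an SE of 0.23 (95% interval −2.02 to −0.96, limma adjusted p = 0.00757). Without ventricular array 1a the log2 fold was −1.28 and Irx5 missed. That fit leaves 1 ventricular array, so it cannot show that the call rested on array 1a.

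Irx1, known from the ventricular septum, read 71.4 and 117 on the AV arrays, against 365 and 462 on the ventricular arrays. AV array 1a stood a little above its control of 58.6, and AV array 1b further above its control of 52.6. The AV arrays differed from each other by 0.46 on the log2 scale, and the nearest arrays of the regions by 1.31. The log2 fold was −1.69 with an SE of 0.23 (95% interval −2.24 to −1.15, limma adjusted p = 0.00498). Because the gene was dim in the AV junction the size of its fold moved with the pseudocount, to −2.15 with 1 added and −1.06 with 200, and it passed in both cases.

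Irx2, the other gene known from the septum, read 5.03 and 35.9 on the AV arrays, against 296 and 233 on the ventricular arrays. Both AV arrays lay under their background controls and both ventricular arrays above theirs, so the AV level is only a bound. Set against those controls, the AV level of Irx2 was at least 4.73-fold lower. The fitted log2 fold was −2.19 with an SE of 0.31 (limma adjusted p = 0.00587). It was −4.15 with a pseudocount of 1 and −1.08 with 200, and without ventricular array 1a it was −2.04 with an adjusted p of 0.0516.

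Irx1, Irx3, Irx4 and Irx5 were not told apart by the size of their difference, and Irx2, with only a bound in the AV junction, was left out of this comparison. In the 6 pairs among these 4 genes every 95% interval of the difference between log2 folds included 0, also with a pseudocount of 1 or 200, with errors of the probe sets taken as independent and no adjustment over pairs. The widest difference, Irx1 minus Irx5, was −0.21 (95% interval −0.97 to 0.55), and Irx3 and Irx4, of different clusters, differed by −0.02 (−0.49 to 0.45). These intervals do not show that the genes differed by the same amount. Since probe sets bind with different strength, levels were not compared between genes.

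Irx6 did not pass. It read 113 and 117 on the AV arrays, against 211 and 199 on the ventricular arrays. The regions did not overlap, but the log2 fold was −0.62 with an SE of 0.21 (limma adjusted p = 0.0893). The log2 folds of Irx1, Irx3, Irx4 and Irx5 minus that of Irx6 ran from −1.07 (Irx1, 95% interval −1.80 to −0.34) to −0.86 (Irx5, −1.58 to −0.15), and all 4 intervals lay below 0. Irx6 was dim, at a mean of 160 over the 4 arrays, and the added 50 shortens the folds of dim probe sets. With a pseudocount of 1 its log2 fold was −0.82, where Irx5 had −1.70, and the interval of that difference reached 0 (−1.77 to 0.02), while the other 3 stayed below it.

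**Figure D2:**
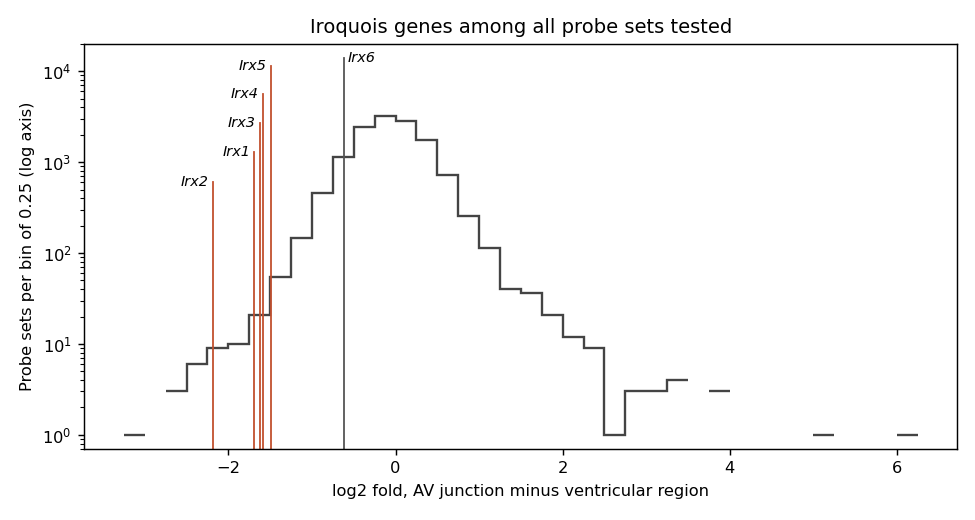
Number of probe sets tested per bin of 0.25 in log2 fold, AV junction minus ventricular region, on a log axis, with vertical lines at the 5 Iroquois genes (red) and Irx6 (grey). The heights of the vertical lines only space the names. The red lines sit between −2.19 and −1.49 in the lower tail, and Irx6 at −0.62 stands nearer the bulk. The line of Irx2, at −2.19, is a fitted value against an AV level under background.

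Genes that flank the clusters were looked at next, because the Iroquois genes lie together on their chromosomes. Among the 8 nearest protein-coding genes on each side of both clusters, 32 in all by a RefSeq gene table used only for order, 15 had no probe set with 1 gene symbol, 6 were too dim to be tested and 11 were tested. With limma 0 of these 11 were higher, 1 was lower and 10 did not pass, and at an unadjusted p under 0.05 there was 1 in each direction (Fto and Mrpl36). Over all 8410 genes tested, 8.47% were higher and 6.54% lower. The 11 neighbours had a median log2 fold of 0.15, and that of all genes was −0.06.

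Next to Irx1, Irx2 and Irx4, the lower gene was Mrpl36, which encodes a mitochondrial ribosomal protein. It read 434 and 265 on the AV arrays, against 676 and 620 on the ventricular arrays. Its log2 fold of −0.84 passed narrowly (limma adjusted p = 0.0408) and missed without AV array 1b, ventricular array 1a or ventricular array 1b (adjusted p up to 0.158). It also missed with no floor (0.103), without a variance trend (0.0956), with arrays centred on heart muscle genes (0.118) and with arrays centred on the median of all non-control probe sets (0.0711), and it passed in the other 8 of 15 alternatives. The others tested there, from Nsun2 at −0.03, Med10 at 0.15 and Ice1 at 0.15 on one side to Lpcat1 at −0.27, Slc6a3 at −0.13 and Clptm1l at 0.26 on the other, did not pass.

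Next to Irx3, Irx5 and Irx6, Fto, which encodes an RNA demethylase and whose introns are known to hold enhancers of Irx3, read 1193 and 1444 on the AV arrays, against 894 and 1105 on the ventricular arrays. The regions did not overlap, but its log2 fold of 0.38 did not pass (limma adjusted p = 0.125). The matrix metalloproteinase gene Mmp2 on the other side gave 0.20 and did not pass on its brightest probe set, while a second probe set gave 1.41 and passed. Aktip had a log2 fold of 0.26 and Slc6a2 of −0.19, and neither passed.

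**Figure D3:**
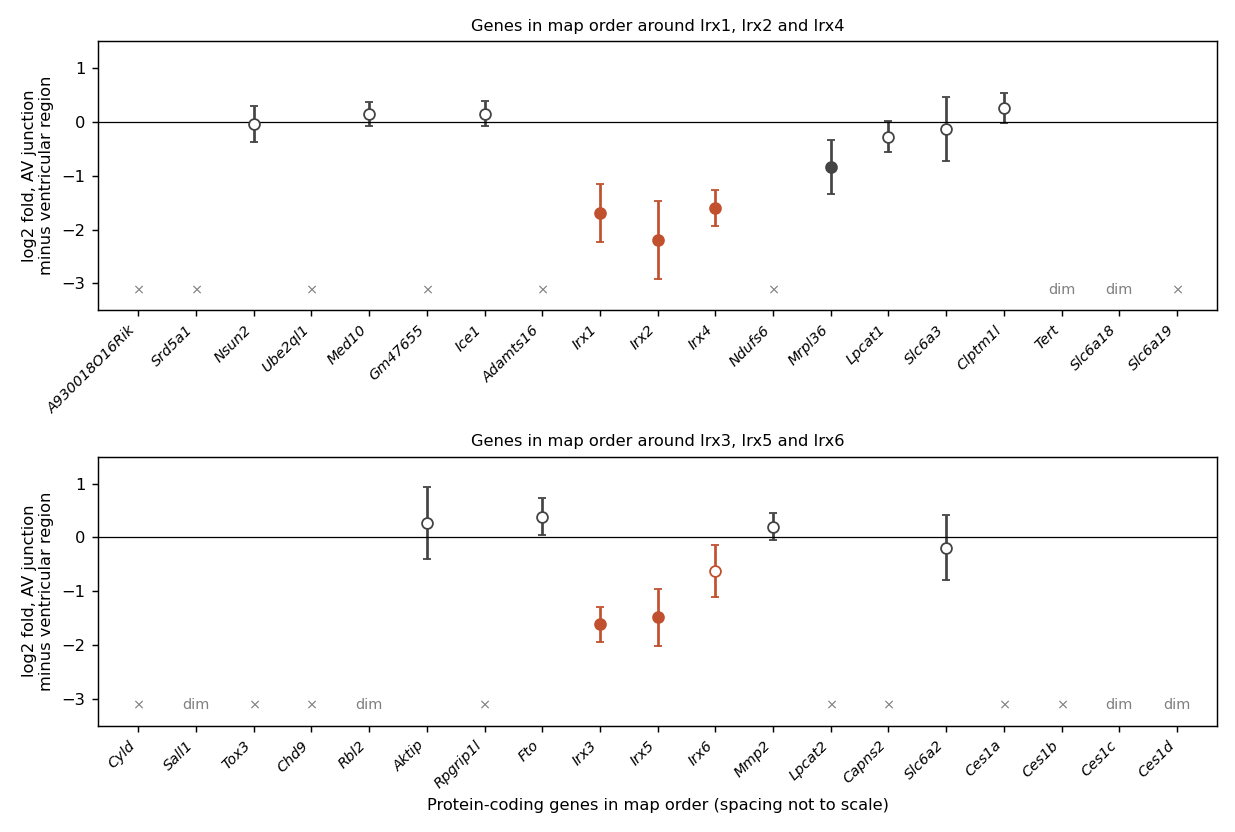
Log2 fold, AV junction minus ventricular region, with 95% intervals for the protein-coding genes around each Iroquois cluster in map order, with spacing not to scale. Filled points passed the test and open points did not, Iroquois genes are in red, × marks genes with no probe set and "dim" genes under the floor. The red points of Irx1 to Irx5 lie at −1.49 or lower, and of the 11 neighbours Mrpl36 at −0.84 is the lowest.

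No other TALE homeobox gene tested passed. Of 12 on the list, 5 were tested, 5 were too dim and 2 had no probe set with 1 symbol. All 5 missed in limma's test, where 1 (Meis2) had an unadjusted p under 0.05, and their median log2 fold was −0.04. Over all genes tested 15.0% passed in either direction, so that 0 of 5 is near the background. Meis1, a partner of Hox proteins, read 646 and 564 on the AV arrays, against 673 and 578 on the ventricular arrays (log2 fold −0.04). Its relative Meis2 read 830 and 664, against 476 and 554, and its log2 fold of 0.49 did not pass (limma adjusted p = 0.077). Pbx2, Pbx3 and Tgif2 had log2 folds of 0.10, −0.37 and −0.11.

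Genes that have been described as cofactors or targets of Iroquois factors, most of them in the heart, were mostly lower in the AV junction where they passed. Of 23, 14 were tested, 8 were too dim and 1 had no probe set with 1 symbol. Of the 14, 6 were lower, 1 was higher and 7 did not pass, with a median log2 fold of −0.60. Over all 8410 genes tested, 6.54% were lower and 8.47% higher. The list overlaps that of chamber muscle, and no set test was made. Of the lower genes, Gja1, Nppa, Myl2, Myh7 and Hand1 are also chamber muscle genes of that list, and only Cxcl12 is not.

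Nppa, the natriuretic peptide gene of chamber muscle, read 3573 and 2772 on the AV arrays, against 14997 and 15945 on the ventricular arrays, and fell by a log2 fold of 2.28 (limma adjusted p = 0.000174). Myl2, the ventricular myosin light chain gene, fell by 1.41. The chemokine gene Cxcl12, which Irx5 is known to repress in Xenopus embryos, read 457 and 479 on the AV arrays, against 1237 and 1253 on the ventricular arrays, and fell by 1.32 (limma adjusted p = 0.000924). Gja1, a gap junction gene that Irx3 is known to restrain in the mouse conduction system, fell by 1.17 on its brightest probe set. Cxcl12 and Gja1 were thus lower together with a factor known to hold them down in other tissue, and regulation was not tested. The remaining lower genes were Myh7, a myosin heavy chain gene, at −0.97 and the ventricular factor gene Hand1 at −0.76, whose call (limma adjusted p = 0.0491) was lost in 10 of 15 alternatives (up to 0.211). These were the fits without either AV array or without ventricular array 1b, quantile normalisation, each of the 3 ways of centring the arrays, a pseudocount of 200, no floor and no variance trend.

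Tbx5, a T-box factor gene, was the higher one. It read 1003 and 989 on the AV arrays, against 529 and 518 on the ventricular arrays, a log2 fold of 0.87 (limma adjusted p = 0.0049). Kcnd2, the potassium channel gene that Irx5 is known to repress in the adult mouse ventricle, read 172 and 133 on the AV arrays, against 195 and 141 on the ventricular arrays, and its log2 fold of −0.10 did not pass. Smyd1, a muscle methyltransferase gene reported to work with Irx5 on Kcnd2, had −0.17 on its brightest probe set and did not pass either. Another Smyd1 probe set gave −0.75 and missed narrowly (limma adjusted p = 0.0578).

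**Figure D4:**
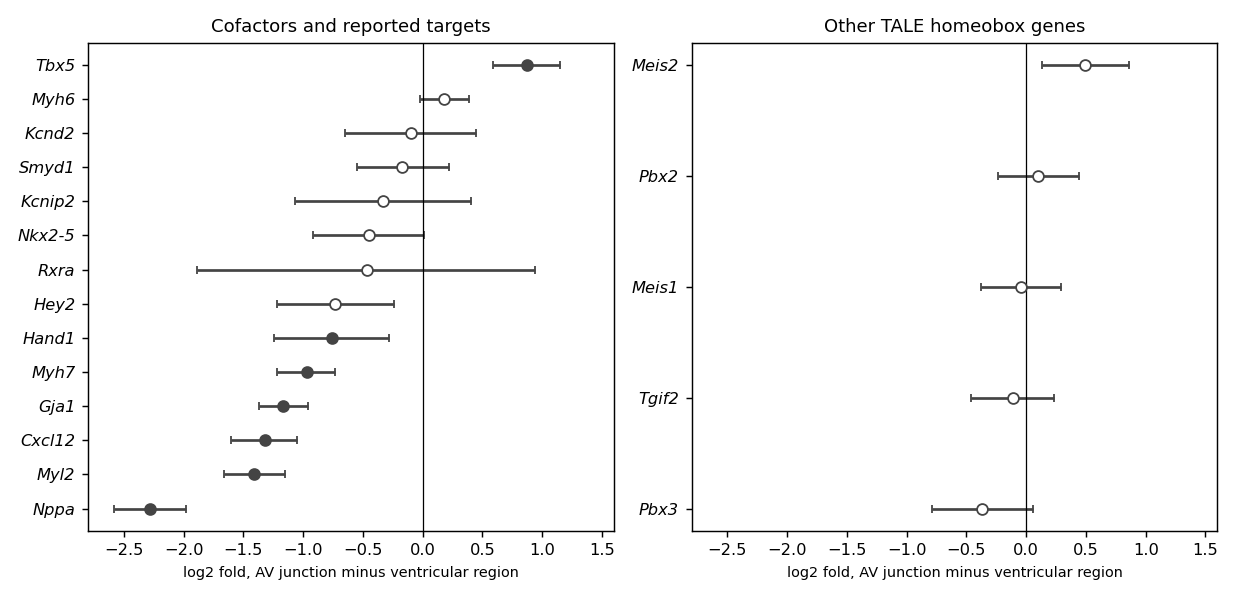
Log2 fold, AV junction minus ventricular region, with 95% intervals, for the tested cofactors and reported targets of Iroquois factors (left) and the other tested TALE homeobox genes (right). Filled points passed the test and open points did not. On the left 6 genes passed below 0 and Tbx5 above it, and on the right none of the 5 passed.

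The pieces of tissue differed in more than the Iroquois genes. The counts of marker genes that follow stand beside 8.47% of all 8410 genes tested that were higher and 6.54% that were lower. In bulk samples of this kind fewer cells of a type and less RNA per cell cannot be told apart. Of 8 genes of all heart muscle, 3 were lower (Tnnt2, Tnnc1 and Actn2), 0 higher and 5 did not pass. Their summed intensity was 64155 to 65553 on the AV arrays and 73812 to 74563 on the ventricular arrays. Tpm1 did not pass on its brightest probe set (log2 fold −0.35). Of its other probe sets, one gave 1.01 and passed as higher, and one gave −0.72 and did not pass. Tnnt2 missed without any 1 of the 4 arrays (limma adjusted p up to 0.112) and in 5 other alternatives, among them quantile normalisation (0.138). Centring the arrays on these 8 genes was an alternative chosen after the data were seen. It raised every log2 fold by the same amount, and so the median of all probe sets by 0.30. All 5 Iroquois genes passed as lower, with log2 folds of −1.40, −1.89, −1.32, −1.30 and −1.19 for Irx1 to Irx5 and limma adjusted p-values up to 0.0104. Because the shift was equal for all probe sets, it kept their order and could not test the part of muscle content. With that centring 2.25% of all probe sets passed as lower.

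Markers of the cell types in which Iroquois genes are known went different ways. Of 5 trabecular muscle markers tested, 4 were lower and 1 did not pass, and they summed to 14483 to 15147 on the AV arrays and 33970 to 37410 on the ventricular arrays. Of 14 chamber muscle markers 11 were lower and 3 did not pass (64654 to 69033 against 156485 to 171529). Nppa, Cited1 and Smpx are on both of these lists and count as lower in each. Tnni1, the other lower trabecular gene, passed narrowly (log2 fold −0.39, limma adjusted p = 0.0421) and missed in 9 of 15 alternatives. Among 6 of compact muscle 2 were higher, 1 was lower and 3 did not pass (10744 to 11127 against 11548 to 11555). Of the higher genes, Tbx20 is also on the list of cushion mesenchyme and counts as higher there. Another Tbx20 probe set gave 0.18 and did not pass. All 3 of these compact muscle calls were lost without ventricular array 1a, Ccnd2, the lower one, without any 1 array, and Tbx20 also without AV array 1b. Of 10 endocardial and endothelial markers, of the cells in which Irx5 is known, 2 were higher (Nfatc1 and Tek), 0 lower and 8 did not pass (at an unadjusted p under 0.05 there were 4 higher and 1 lower), and their sums were 6169 to 6904 on the AV arrays and 4913 to 5411 on the ventricular arrays. Tek missed without ventricular array 1a (limma adjusted p = 0.0531) and without a variance trend (0.0512), and a second probe set of Nfatc1 gave 0.41 and did not pass.

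Markers of other cells moved with region too. Of 8 erythroid markers 5 were lower and 3 did not pass (25916 to 27593 on the AV arrays against 41323 to 43201 on the ventricular arrays). Without ventricular array 1a 3 were lower, because Rhag (limma adjusted p = 0.0504) and Hbb-y missed, and Hbb-y missed without any 1 array. Cushion mesenchyme was higher in 10 of 11 (17761 to 20552 against 5949 to 6027), AV canal muscle in 6 of 8 (5231 to 5540 against 1410 to 1666), atrial muscle in 4 of 6 (41238 to 44130 against 35490 to 42467) and liver in 3 of 4 (6587 to 7020 against 436 to 439), and the other members of these lists did not pass. Of 6 epicardial markers 1 (Krt19) was lower, which it was in only 1 of the 4 fits that left out an array, that without ventricular array 1b, and 5 did not pass (2406 to 2602 against 2976 to 3141), and 0 of 3 nervous system markers passed with limma or had an unadjusted p under 0.05 (978 to 1178 against 867 to 1275). Myl7, 1 of the higher atrial genes, had a log2 fold of 0.42 that missed in 6 of 15 alternatives, and the atrial sums of the regions overlapped. Sums of intensities mostly follow the brightest probe sets of a list. Hbb-y, for example, held 23754 of the mean erythroid sum of 26755 on the AV arrays. No marker tested had a value listed at 0. The part of these cells in the Iroquois differences was not tested.

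Genes with the pattern most like each Iroquois gene but Irx2 were found by the root mean square difference of log2 values over the 4 arrays, after centring each gene on its own mean. This is a description over 4 arrays, with no test. Irx4 was nearest to Ddc, which encodes aromatic amino acid decarboxylase, at 0.051, then to Mest at 0.083 and Acp5 at 0.085, where the median distance over all genes was 0.78. Irx3 was likewise nearest to Ddc, at 0.066, and its 2nd nearest gene was Irx4, at 0.114, followed by Rgcc at 0.121. Irx5 and Irx1 ranked 19 and 61 in nearness to Irx3. Irx3, Irx1 and Irx5 ranked 9, 24 and 70 in nearness to Irx4. Ddc read 695 and 666 on the AV arrays, against 2190 and 2211 on the ventricular arrays, so that it too had regions far apart and close arrays within each.

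Irx1 was nearest to Acp5, at 0.087, Pcyt2, at 0.093, and Ermap, an erythroid membrane protein gene, at 0.108, and Irx4 was its 6th nearest gene. Irx3 and Irx5 ranked 25 and 170 in nearness to Irx1. Pcyt2 read 39.5 on AV array 1a, under the control of that array. No distances are given for Irx2, whose AV readings lay under background. Irx5 was nearest to the keratin gene Krt75 at 0.101. Both AV readings of Krt75, 58.0 and 16.1, lay under background, so that its AV level is a bound and this distance is uncertain. Rgcc at 0.134 and Aplp2 at 0.148 came next, and both read higher on array 1a than on 1b in both regions. Irx3, Irx4 and Irx1 ranked 11, 47 and 355 in nearness to Irx5.

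**Figure D5:**
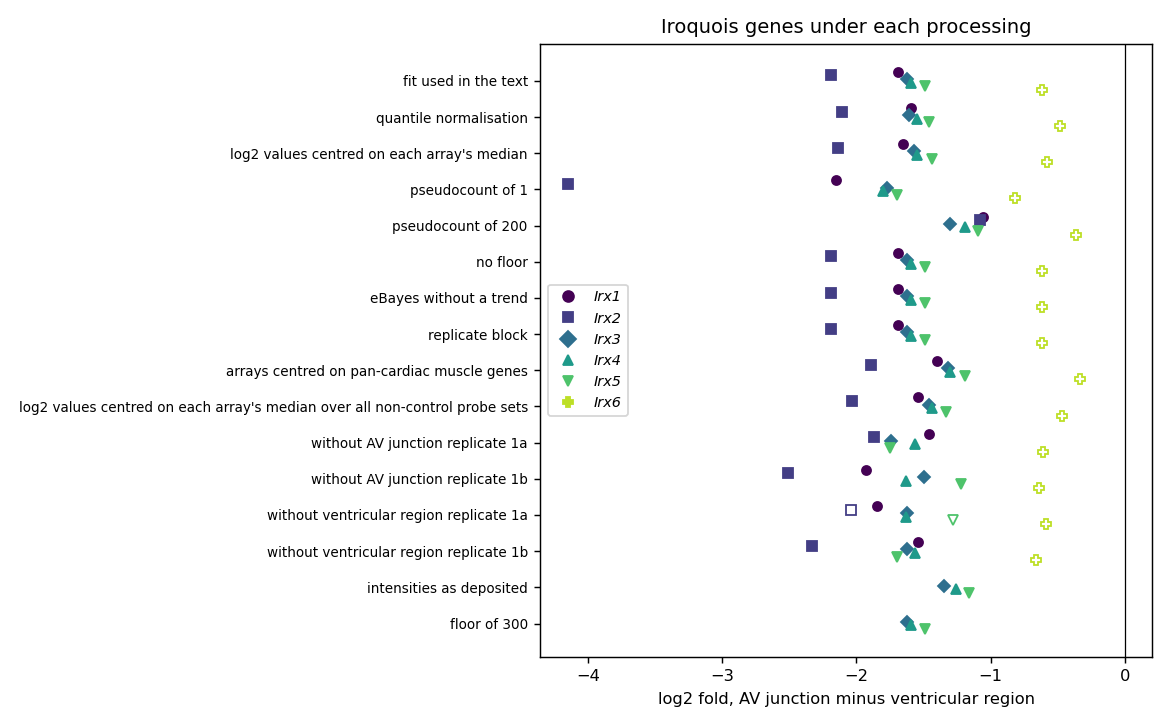
Log2 fold, AV junction minus ventricular region, of each Iroquois gene and Irx6 under each processing alternative. Filled symbols passed the test and open symbols did not, and rows with fewer symbols left the dim genes untested. All symbols lie below 0, and of Irx1 to Irx5 the open ones are Irx2 and Irx5 without ventricular replicate 1a.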

How the data were processed

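The authors deposited linear intensity values, 1 for each probe set on each array, which the submitters' processing notes credit to MAS5. Its version, detection calls and a genome build are not given in the sources used here. Controls aside, the arrays were rescaled to share a trimmed mean of 500, with 2% trimmed at each end. A floor of 100 on the 4-array mean left out 9223 of the 22626 probe sets that are not controls. After adding 50 and taking log2, limma 3.58.1 for R 4.3.3 fitted region alone by lmFit and eBayes with a variance trend, which was tested on simulated data. A gene in a list stands for its brightest tested probe set. A level is called a bound where both arrays of a region lay at or below the brightest Bacillus control of their array. The number of arrays limits the precision.

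The experiment records put the arrays on fluidics modules 1 to 4 of 1 station, 1 array each, so module and array cannot be told apart. The genes, lists and tests were chosen with earlier results of these data known. Named genes are all Iroquois genes, their map neighbours, the 3 most alike genes of each (not printed for Irx2, a bound), and, list by list, up to 4 genes with the largest passing folds (the 2 brightest where none passed). Pbx2, Pbx3, Tgif2, Tbx5, Myh7, Hand1, Kcnd2, Smyd1, Tek, Nfatc1, Tnnt2, Tnnc1, Actn2, Tpm1, Ccnd2, Tbx20, Rhag, Hbb-y, Krt19, Hhex, Msx1, Nkx2-5 and Hopx were named for their values or roles after these were seen. Alternatives changed 1 choice at a time, except the intensities as deposited. All 4 arrays had the same scale factor, 3.35, so that this alternative left the scaling between arrays alone and raised the pseudocount and the floor together, to 168 and 335 in scaled units. Plots used matplotlib 3.10.9 (Python 3.11.15).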

Additional observations from a re-analysis of the deposited data

How the results depend on the processing

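The log2 folds of Irx1 to Irx5 stayed below 0 under every alternative run, and those of Irx3, Irx4 and Irx1 passed wherever the gene was tested. With the intensities as deposited, in effect a higher pseudocount and floor, or with a floor of 300, Irx1 and Irx2 were too dim to be tested, and 3 Iroquois genes passed of 3 tested. With 1 array left out the number that passed was 3 to 5, the lower one without ventricular array 1a, where Irx2 and Irx5 missed. In these fits the log2 fold ran from −2.51 to −1.87 for Irx2 and from −1.75 to −1.22 for Irx5. Over all alternatives the limma adjusted p ran from 0.000991 to 0.0516 for Irx2 and from 0.000152 to 0.0516 for Irx5. Irx6 passed under none of them (adjusted p from 0.0582 to 0.334). A fit that leaves 1 array in a region takes its spread from the others.

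Counts over all probe sets, 970 higher and 882 lower, moved far more. They were 580 and 431 with no floor, 326 and 343 without a variance trend, 1714 and 459 with arrays centred on the median of all non-control probe sets (78.9% of calls higher, against 52.4%), and 3027 and 301 with arrays centred on heart muscle genes (91.0%). Both centrings were chosen after the data were seen. Leaving out 1 array gave 404 (without ventricular array 1a) to 507 higher and 261 (without ventricular array 1a) to 501 lower probe sets, and 484 higher and 297 lower without ventricular array 1b, 482 higher without AV array 1a and 485 lower without AV array 1b.

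With the array letter as a replicate block 1344 probe sets were higher and 1375 lower, and no Iroquois call changed (Irx4 had −1.59, adjusted p = 8.32e-05). Same-letter arrays deviated together only weakly (r = 0.0564 across probe sets, which are not independent), so the letters were not taken as pairs.

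Leaving out 1 array, an alternative added for the gene lists after the data were seen, moved 6 of the lists by over 1.5 times. Compact muscle had 0 to 2 higher (0 without ventricular array 1a, 1 without AV array 1b) and 0 lower genes in each such fit. Erythroid cells had 3 (without ventricular array 1a) to 4 lower, other homeobox genes 3 (without AV array 1b) to 5 higher, endocardium 1 (without ventricular array 1a) to 2 higher, epicardium 0 to 1 lower (1 without ventricular array 1b) and genes next to the Iroquois clusters 0 to 1 lower (1 without AV array 1a).

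Under the other alternatives run on the lists (quantile normalisation, centring on the array median, intensities as deposited and averaging of probe sets) these counts moved by over 1.5 times. Cofactors and targets had 2 higher genes and heart muscle 1 with quantile normalisation, and epicardium had 2 lower there and as deposited. As deposited, 2 other homeobox genes (of 5 tested) and 1 endocardial gene (of 6) were higher. With a gene's probe sets averaged, 1 compact muscle gene was higher and 2 lower, 1 atrial gene was lower and 1 gene next to the Iroquois clusters was higher. The causes were not tested.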

Other observations

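On a list of homeobox genes outside the TALE class, those that passed went the other way more often than not. Of its 35 genes, chosen for the embryonic heart and its neighbours, 18 were tested, 14 were too dim and 3 had no probe set with 1 symbol. Of the 18, 6 were higher in the AV junction, 1 was lower and 11 did not pass, with a median log2 fold of 0.25, where 8.47% of all genes tested were higher and 6.54% lower. Prrx1, a factor of mesenchyme, read 378 and 383 on the AV arrays, against 55.0 and 7.04 on the ventricular arrays, at least 3.77-fold higher. Hoxa5 read 207 and 222 on the AV arrays, against 10.7 and 9.73 on the ventricular arrays, at least 2.12-fold higher. Meox1 and Msx2 rose by log2 folds of 1.27 and 1.22. Msx1 rose by 1.16 on its brightest probe set, while a second probe set gave −0.65 and did not pass. Prrx1 and Msx1 are also on the list of cushion mesenchyme, and Msx2 is on that of AV canal muscle. Meox1 missed without AV array 1b (limma adjusted p = 0.0595), and Msx2 without either AV array or without ventricular array 1a (up to 0.0694) and with no floor (0.0574). Hhex missed without any 1 array, so that without AV array 1b 3 of the 6 remained higher.

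The 1 lower gene was Hopx, a homeodomain protein of heart muscle that does not bind DNA. It read 2960 and 3163 on the AV arrays, against 5649 and 6770 on the ventricular arrays, so that the AV mean was 2.03-fold lower (limma adjusted p = 0.00227), and a second probe set gave −0.79 and did not pass. Nkx2-5, a factor of all heart muscle, read 207 and 196 on the AV arrays, against 343 and 253 on the ventricular arrays, and its log2 fold of −0.45 did not pass.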
